A study of Mus musculus with 14 samples.

Results

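The tricarboxylic acid (TCA) cycle and the steps that feed pyruvate into it are encoded here by 30 genes of the 52550 in the deposited table. They were selected by name, from their known roles and not from their values. They comprise the mitochondrial pyruvate carrier and the pyruvate dehydrogenase complex, the enzymes of the cycle with complex II of the respiratory chain, and the enzymes that add carbon to the cycle or draw it off. The study asked what loss of Setd2, the methyltransferase that trimethylates lysine 36 of histone H3, changes in lung adenocarcinoma. RNA was sequenced from 6 KPY-Ctrl and 8 KPY-Setd2KO mouse lung tumors. All were raised in adult mice of a mixed B6J/129S4vJae background that carried Trp53 flox/flox, which Cre deletes, and a homozygous Rosa26 LSL-YFP/LSL-YFP reporter, from which Cre turns on yellow fluorescent protein (YFP). An intratracheal lentivirus carried Cre and Cas9 to every tumor, with a guide against the bacterial gene for beta-galactosidase (sgBGal) in KPY-Ctrl and a guide against Setd2 in KPY-Setd2KO, so both genotypes hold Cas9 and lack Trp53. Tumors of matched stage were dissociated and live YFP+ cells were sorted. The age at harvest was not given in the sources used here. In each genotype the tumors came from fewer mice than tumors, so some share a mouse. The sources did not say which tumors these were, so every test here treats tumors as independent, and its p-value may be too small.

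Pyruvate enters the mitochondrion through the Mpc1-Mpc2 carrier and is turned into acetyl-CoA by pyruvate dehydrogenase, or into oxaloacetate by pyruvate carboxylase (Pcx). Citrate synthase joins acetyl-CoA to oxaloacetate, and the cycle then oxidises citrate back to oxaloacetate, passing electrons to NADH and, at complex II, to ubiquinone. The same intermediates supply lipid, amino acid and NADPH synthesis, which makes the cycle a biosynthetic hub in proliferating cells as well as a source of energy.

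Libraries held 27866266 to 51828846 estimated counts in KPY-Ctrl and 20072236 to 40604404 in KPY-Setd2KO. All 30 genes passed the filter on low counts that left 16836 genes for testing, and the lowest count of any of them in any library was 141. Setd2 itself was at 43.0, 54.2 and 67.3 CPM (lowest, median and highest) in KPY-Ctrl and 17, 30.4 and 48.5 CPM in KPY-Setd2KO. The difference in mean log2 CPM was -0.855 (two-sided exact permutation test, p = 0.00433), with overlap between the genotypes. Across all genes edgeR gave Setd2 a log2 fold change of -0.74 (adjusted p = 0.175), and -0.83 (adjusted p = 0.0274) with the leukocyte-marker score described next. RNA level does not read the edited allele itself. Epithelial markers were present in every tumor, with a summed level of 13400 to 62900 CPM in KPY-Ctrl and 5510 to 46100 CPM in KPY-Setd2KO. RNA of white blood cells was present too, although the sort was for YFP+ cells, and very unequally. The summed level of 12 leukocyte markers was 147 to 687 CPM in 7 tumors and 5480 to 10000 CPM in the other 7, which comprised 3 KPY-Ctrl and 4 KPY-Setd2KO tumors. The leukocyte-marker score, the mean log2 CPM of these markers, differed by 0.352 between the genotypes (exact permutation p = 0.732). A list of 13 macrophage markers summed to 502 to 45600 CPM in KPY-Ctrl and 363 to 83000 CPM in KPY-Setd2KO. In each of the 7 tumors with the higher leukocyte-marker sums, the macrophage sum exceeded the epithelial sum, although such sums depend on the genes listed. The extremes were KPY-Setd2KO replicate 2 (82986 against 6812 CPM) and KPY-Ctrl replicate 6 (22403 against 21378 CPM). Neutrophil markers summed to 4.41 to 37.8 CPM in KPY-Ctrl and 18.8 to 61.1 CPM in KPY-Setd2KO, and endothelial markers to 10.1 to 28.3 and 16.9 to 51.8 CPM (each exact permutation, adjusted p = 0.0693 over 8 marker lists). Ly6g, a defining neutrophil marker, was at or near 0 in every tumor, and the part of these 2 lists in the results was not tested. In bulk RNA, fewer cells of a type and less RNA per cell cannot be told apart.

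The 30 genes together took 3603, 3787 and 4174 CPM (lowest, median and highest) in KPY-Ctrl and 2773, 3565 and 4574 CPM in KPY-Setd2KO. Their mean levels per kilobase of transcript spanned 4.23 to 141 CPM per kb. Mdh2, mitochondrial malate dehydrogenase, stood highest at 141 CPM per kb, followed by Glud1, glutamate dehydrogenase, at 121 CPM per kb and Idh1, the cytosolic isocitrate dehydrogenase, at 95.5 CPM per kb. Dlat and Pdhx, both of the pyruvate dehydrogenase core, were at 12.8 and 7.13 CPM per kb, and Pcx was lowest at 4.23 CPM per kb. The spread over tumors was just as unequal. The highest tumor exceeded the lowest 9.4-fold for Me1, 8.25-fold for Pcx, 7.87-fold for Me2 and 6.57-fold for Mpc1, but only 1.38-fold for Sucla2, the steadiest of the 30. With log2 CPM of all 14 tumors, the standard deviation was 1.105 for Me1, the cytosolic malic enzyme, and 0.132 for Sucla2.

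**Figure D1:**
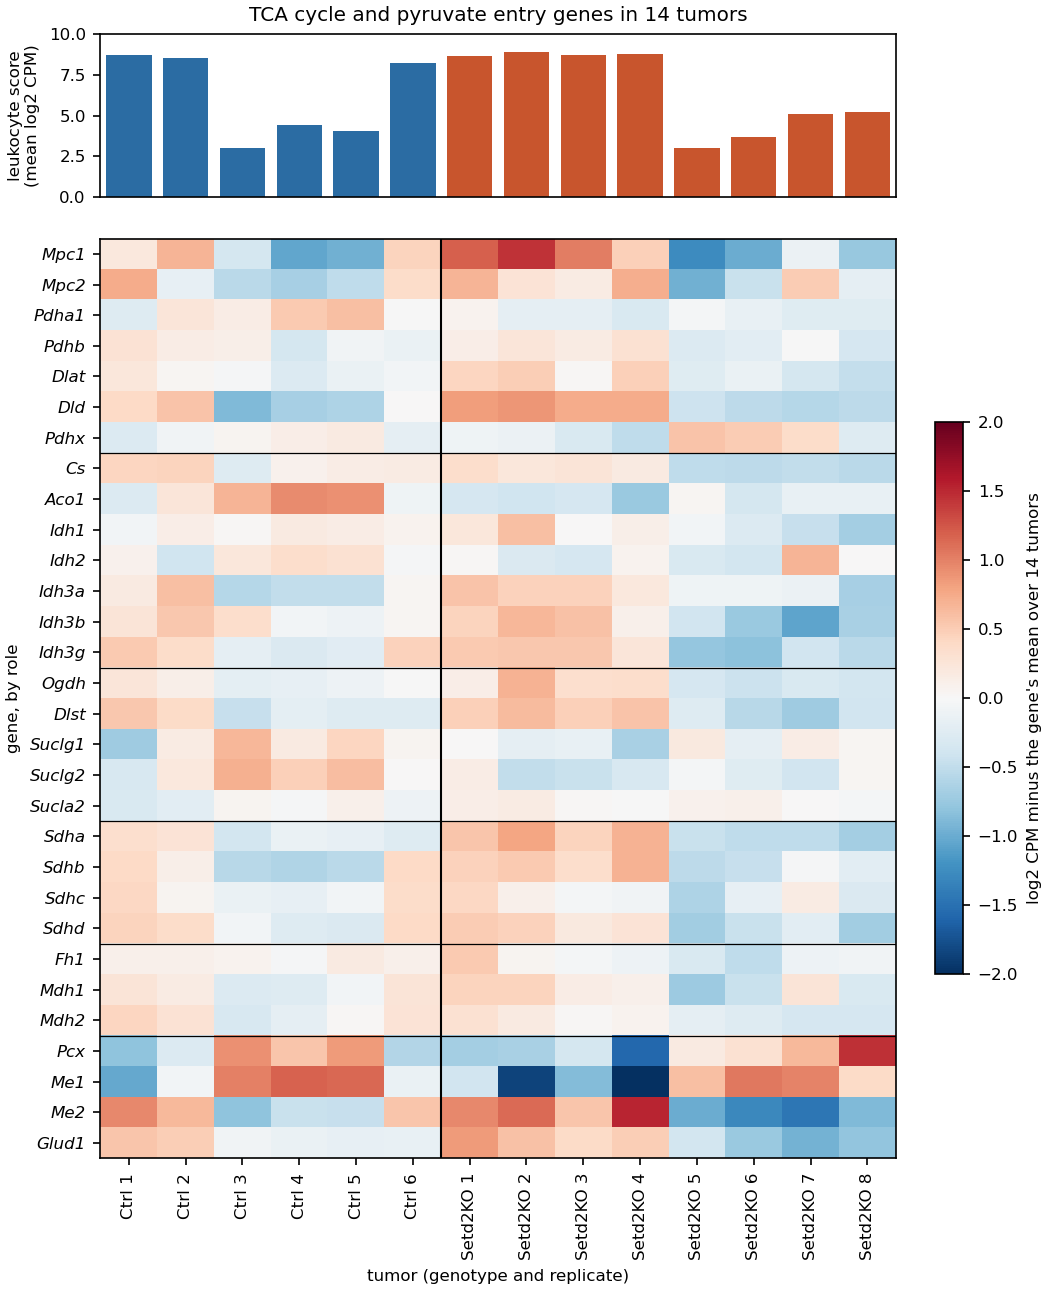
Log2 CPM of each gene in each tumor, shown as the difference from that gene's mean over 14 tumors, with genes in rows by role and tumors in columns by genotype. The bars above give the leukocyte-marker score, and Me1 and Pcx run opposite to it while Me2, Mpc1, Dld and complex II run with it.

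In the pyruvate entry group, Pdha1 was the gene with the smallest genotype p. Pdha1 encodes the catalytic E1 alpha subunit of pyruvate dehydrogenase, whose phosphorylation switches the complex off. It was at 101.1, 138.1 and 182.5 CPM in KPY-Ctrl and at 98.07, 106.7 and 127.3 CPM in KPY-Setd2KO. Most KPY-Setd2KO tumors thus lay near the lower end of the KPY-Ctrl range, and the genotypes overlapped. The log2 fold change was -0.34 (SE 0.14, edgeR quasi-likelihood test, Benjamini-Hochberg adjusted p = 0.302). Dld, the dihydrolipoamide dehydrogenase that pyruvate and 2-oxoglutarate dehydrogenase share, went the other way. Its levels were 55.84, 84.71 and 152.5 CPM in KPY-Ctrl and 69.27, 124.6 and 188.7 CPM in KPY-Setd2KO, with overlap. The log2 difference of Dld was 0.42 (SE 0.34, adjusted p = 0.651) on genotype alone and 0.31 (SE 0.12, adjusted p = 0.123) once the leukocyte-marker score was in the edgeR fit. Mpc1, one of the carrier's 2 obligate subunits, was at 29.8, 59.52 and 98.17 CPM in KPY-Ctrl and at 25.45, 70.55 and 167.3 CPM in KPY-Setd2KO. The 4 highest values were in KPY-Setd2KO replicates 1, 2, 3 and KPY-Ctrl replicate 2, all with high leukocyte-marker RNA. Its log2 fold change of 0.50 had an SE of 0.46 (adjusted p = 0.710). Mpc2, Pdhb, Dlat and Pdhx had log2 fold changes of 0.27, 0.05, 0.15 and 0.14, none past the test.

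Between citrate and 2-oxoglutarate, Aco1 was lower in KPY-Setd2KO tumors. Aco1 (ENSMUSG00000028405.9, chr4:40143081-40198338, plus strand, GRCm38) encodes cytosolic aconitase, which also acts as an iron-regulatory RNA-binding protein when it lacks its iron-sulfur cluster. Aco1 was at 127.8, 215.5 and 299.3 CPM in KPY-Ctrl and at 92.56, 122.6 and 159.2 CPM in KPY-Setd2KO. The KPY-Setd2KO tumors lay below the KPY-Ctrl median, and the ranges overlapped between 127.8 and 159.2 CPM. On genotype alone the log2 fold change was -0.71 (SE 0.20) and did not pass adjustment with edgeR (adjusted p = 0.158), while DESeq2 called it (adjusted p = 0.0275). With the leukocyte-marker score in the edgeR fit the log2 difference was -0.63 (SE 0.14, adjusted p = 0.0238), a level 0.646 of that in KPY-Ctrl. The call was held in 10 of 14 fits that each left out 1 tumor, and was lost without KPY-Ctrl replicate 2, 4 or 5 or KPY-Setd2KO replicate 6 (largest adjusted p = 0.068). Its log2 difference stayed between -0.72 and -0.57 in all 14.

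Cs, citrate synthase, which makes citrate, was at 148.2, 196.4 and 241.3 CPM in KPY-Ctrl and 121.3, 162.4 and 225.3 CPM in KPY-Setd2KO. The 2 ranges overlapped over most of their width, with a log2 fold change of -0.22 (SE 0.20, adjusted p = 0.696) on genotype alone. With the score the Cs difference was -0.30 (SE 0.10, edgeR adjusted p = 0.0917), and DESeq2 called it (adjusted p = 0.0386). The isocitrate dehydrogenases did not pass the test. The log2 fold changes were -0.06 for Idh1 and -0.08 for Idh2, the mitochondrial NADP enzyme, and 0.24, -0.15 and -0.08 for Idh3a, Idh3b and Idh3g, the catalytic and regulatory subunits of the NAD enzyme of the cycle.

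At the step from succinyl-CoA to succinate, the balance of 2 subunits differed between genotypes. Succinyl-CoA synthetase pairs the common alpha subunit Suclg1 with 1 of 2 beta subunits, Suclg2 for the GTP-forming enzyme or Sucla2 for the ATP-forming enzyme. Suclg2 (ENSMUSG00000061838.7, chr6:95473009-95718800, minus strand, GRCm38) was at 52.82, 83.95 and 107.9 CPM in KPY-Ctrl and 47.02, 54.31 and 73.15 CPM in KPY-Setd2KO. Sucla2 (ENSMUSG00000022110.13, chr14:73525319-73596142, plus strand, GRCm38) was at 49.67, 59.17 and 66.23 CPM in KPY-Ctrl and 60.01, 63.95 and 68.69 CPM in KPY-Setd2KO. Suclg2 tended to lie low and Sucla2 high in KPY-Setd2KO, with overlap for each. Singly, neither passed adjustment. Suclg2 had a log2 fold change of -0.47 (SE 0.17, edgeR adjusted p = 0.251), and -0.42 (adjusted p = 0.0898) with the score. Sucla2 had 0.18 on genotype alone and 0.19 (edgeR adjusted p = 0.191) with the score.

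The ratio of the 2 beta subunits within each tumor, which does not depend on how libraries are scaled, passed the test. The count of Suclg2 over that of Sucla2 was 1.06, 1.47 and 1.69 (lowest, median and highest) in KPY-Ctrl and 0.685, 0.852 and 1.13 in KPY-Setd2KO. All 6 KPY-Ctrl tumors held more Suclg2 than Sucla2 counts. Their mean log2 ratio was 0.461 ± 0.262 (SD, n = 6) against -0.176 ± 0.247 (SD, n = 8) in KPY-Setd2KO, a difference of -0.637 (two-sided exact permutation test, p = 0.00167, Benjamini-Hochberg adjusted p = 0.0117 over 7 pairs). This adjustment covers 7 pairs, chosen with earlier results of these data known, and not all genes. The n counts tumors, some of which share a mouse. With the leukocyte-marker slope removed the difference was -0.618 (permutation test, adjusted p = 0.00699). That slope was fitted once under the observed genotypes and not again for each permutation, so this p-value is approximate. It lay between -0.711 and -0.577 when each tumor was left out in turn, and every one of those 14 tests passed (largest adjusted p = 0.0286). The ratio is of counts and is not a ratio of proteins or of molecules per length. The other 6 pairs, Idh1/Idh2, Idh3a/Idh2, Mdh1/Mdh2, Me1/Me2, Mpc1/Mpc2 and Pcx/Pdha1, differed by -0.49 to 0.372 on the log2 scale, and none passed (smallest adjusted p = 0.916).

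**Figure D2:**
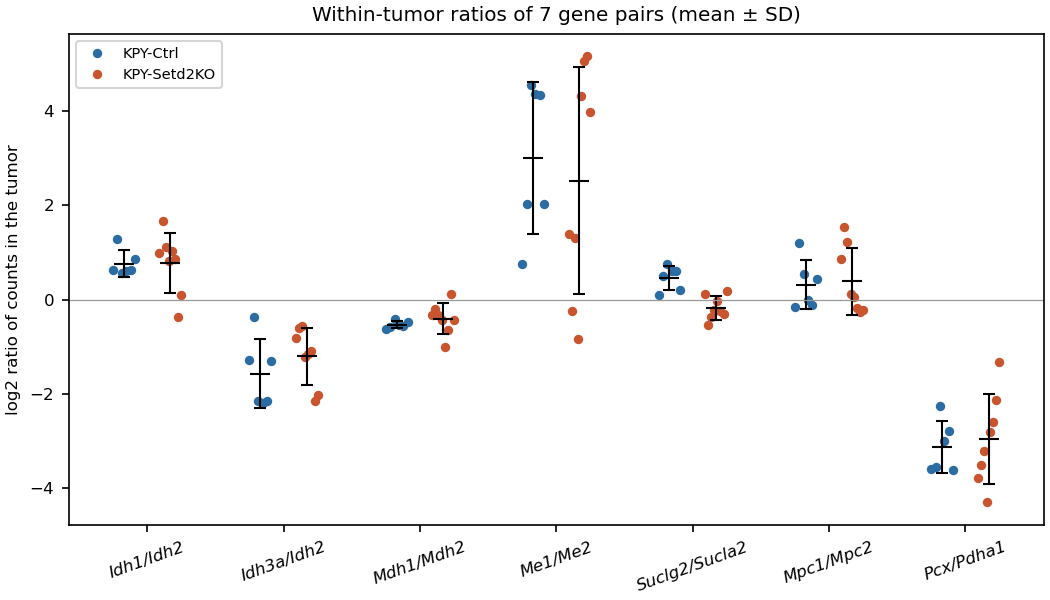
Log2 ratio of the counts of 2 genes within each tumor for 7 pairs, with 1 point per tumor and the mean ± SD of each genotype. Suclg2/Sucla2 is centred on 0.461 in KPY-Ctrl and -0.176 in KPY-Setd2KO, while the other pairs overlap widely and Me1/Me2 spreads most.

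Suclg1, the common alpha subunit, was at 42.41, 78.22 and 109.9 CPM in KPY-Ctrl and 44.38, 66.4 and 80.06 CPM in KPY-Setd2KO. Its range in KPY-Ctrl enclosed the whole KPY-Setd2KO range, and the log2 fold change was -0.20 (SE 0.19, edgeR adjusted p = 0.715). Ogdh and Dlst, the decarboxylase and the lipoyl-bearing core of 2-oxoglutarate dehydrogenase, had log2 fold changes of 0.12 and 0.16, neither past the test.

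Complex II oxidises succinate to fumarate and is the only enzyme of the cycle built into the inner membrane. Its 4 subunits, the flavoprotein Sdha, the iron-sulfur protein Sdhb and the membrane anchors Sdhc and Sdhd, gave genotype log2 fold changes of 0.23, 0.27, -0.09 and -0.09, with no call. Sdhb had the smallest genotype p of the 4, at 54.53, 72.99 and 108.9 CPM in KPY-Ctrl and 57.22, 93.09 and 133.3 CPM in KPY-Setd2KO. These ranges overlapped, and its adjusted p with edgeR was 0.719. All 4 subunits rose with the leukocyte-marker score, by 0.09 (Sdhc) to 0.19 (Sdhb) log2 units per log2 unit of the score, although Sdhc no longer passed (slope 0.0171, adjusted p = 0.58) when libraries were scaled by their totals alone. Once genotype and score were fitted, the residual standard deviation of Sdhb was 0.133, from 0.474 over all tumors, and of the 30 genes only Sucla2 had a smaller one, at 0.106.

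Promoters of the 30 genes were also searched for motifs, and any part of a match in the slopes was not tested. Of the 4 complex II genes, only Sdha and Sdhd had a match. Promoter sequences, 250 bases before to 50 bases after the gene start (RefSeq, GRCm38.p6), were at hand for 27 of the 30 genes. The palindromic motif of NRF1, a transcription factor known to drive nuclear genes of the respiratory chain, was searched on both strands with any base allowed at 1 position. It matched in 4 of 27, Dld, Sdha, Sdhd and Sucla2, which is 14.8% against 10.4% of the 11490 tested genes with a promoter. Its exact form, contained in the first, matched in 0 of 27 (2.12% of tested genes). The ERR family motifs TCAAGGTCA and TNAAGGTCA, the first contained in the second, were searched likewise and each matched in Sdhd alone (0.366% and 1.01% of tested genes). Sdha, on the minus strand, held 3 NRF1 matches, starting 98, 55 and 10 bases before the RefSeq gene start. Sdhd had 1 starting 79 bases before its RefSeq start, and the match of Sucla2 began 17 bases before its own. GENCODE gives other starts for these genes. It starts Sdha at 74350280, so the match nearest the RefSeq start lies inside the GENCODE gene. For Sdhd, GENCODE starts the gene downstream of RefSeq, at 50603812, and for Sucla2 upstream of it. Dld matched after the gene start and is not printed. The match is in capitals, with 10 bases on each side, 5′ to 3′ on the strand of the gene. A match is a description of these letters and not of a bound site.
Sdha at chr13:74350319-74350348, minus strand: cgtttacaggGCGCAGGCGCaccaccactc
Sdha at chr13:74350276-74350305, minus strand: ggggcgtgttGCGCAGGCGCagaatcttcc
Sdha at chr13:74350231-74350260, minus strand: gcgactcggtGCGCAAGCGCagtctgtcgc
Sdhd at chr9:50603909-50603938, minus strand: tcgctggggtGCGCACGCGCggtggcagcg
Sucla2 at chr14:73552759-73552788, plus strand: ctgcgtctctGCGCCTGCGCggtgcccagg

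From fumarate to oxaloacetate, Fh1, fumarate hydratase, and Mdh1, cytosolic malate dehydrogenase, had genotype log2 fold changes of -0.08 and 0.06. Mdh2 was at 161.6, 224.4 and 271.3 CPM in KPY-Ctrl and at 160.4, 191.2 and 250.5 CPM in KPY-Setd2KO. The 2 ranges nearly coincided, and the log2 fold change of Mdh2 was -0.11 (SE 0.17, edgeR adjusted p = 0.835).

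Among the genes that add carbon to the cycle or draw it off, Me1, Me2 and Pcx spread widely over the tumors. Me1 turns malate into pyruvate in the cytosol and makes NADPH, and Me2 turns malate into pyruvate in the mitochondrion with NAD as its main cofactor. Me1 was at 104, 314.6 and 479.1 CPM in KPY-Ctrl and at 50.98, 217.6 and 436.7 CPM in KPY-Setd2KO. Me2 was at 18.15, 35.15 and 61.69 CPM in KPY-Ctrl and at 11.59, 31.92 and 91.22 CPM in KPY-Setd2KO. Both spread severalfold within each genotype, and the genotypes overlapped almost fully. The genotype log2 fold changes were -0.38 for Me1 (SE 0.51, adjusted p = 0.821) and 0.17 for Me2 (SE 0.51, adjusted p = 0.930). The count of Me1 over that of Me2 was 1.69, 9.1 and 23.4 in KPY-Ctrl and 0.559, 6.44 and 36 in KPY-Setd2KO (lowest, median and highest), so Me2 counts exceeded Me1 counts in some KPY-Setd2KO tumors, replicates 2 and 4. Pcx, at 8.388, 16.91 and 27.92 CPM in KPY-Ctrl and 4.947, 14.12 and 40.84 CPM in KPY-Setd2KO, was likewise dispersed, with its highest value in KPY-Setd2KO replicate 8 and its lowest in KPY-Setd2KO replicate 4. Its log2 fold change was -0.02 (SE 0.44, adjusted p = 0.993). Glud1, which turns glutamate into 2-oxoglutarate, had a log2 fold change below 0.01 (SE 0.30).

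Over the 30 genes, 0 passed an adjusted p of 0.05 on genotype alone with edgeR, where 0.0% of all tested genes did. At an unadjusted p of 0.05, 0 were higher, against 6.93% of all tested genes, and 3 were lower (Aco1, Suclg2 and Pdha1), against 6.8% (13.7% in either direction). DESeq2 called 1 of 30, Aco1, and 4.59% of all genes. The genotypes overlapped for all 30 genes, and failed to overlap for 0.588% of tested genes. Of the 30 fold changes 15 were positive, with a median log2 of -0.00736 against 0.0304 over all tested genes. With the leukocyte-marker score in the fit, 0 were called higher and 1 lower, Aco1, where 3.06% of tested genes were called higher and 2.35% lower (5.41% in either direction). At an unadjusted p of 0.05, Dld and Sucla2 were higher and Aco1, Cs, Suclg2 and Pdha1 lower, where 11.6% of tested genes were higher and 12.3% lower. That made 6 of 30 genes, against 23.8% of tested genes in either direction. The median log2 difference was then -0.0828, and -0.0119 over all tested genes.

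**Figure D3:**
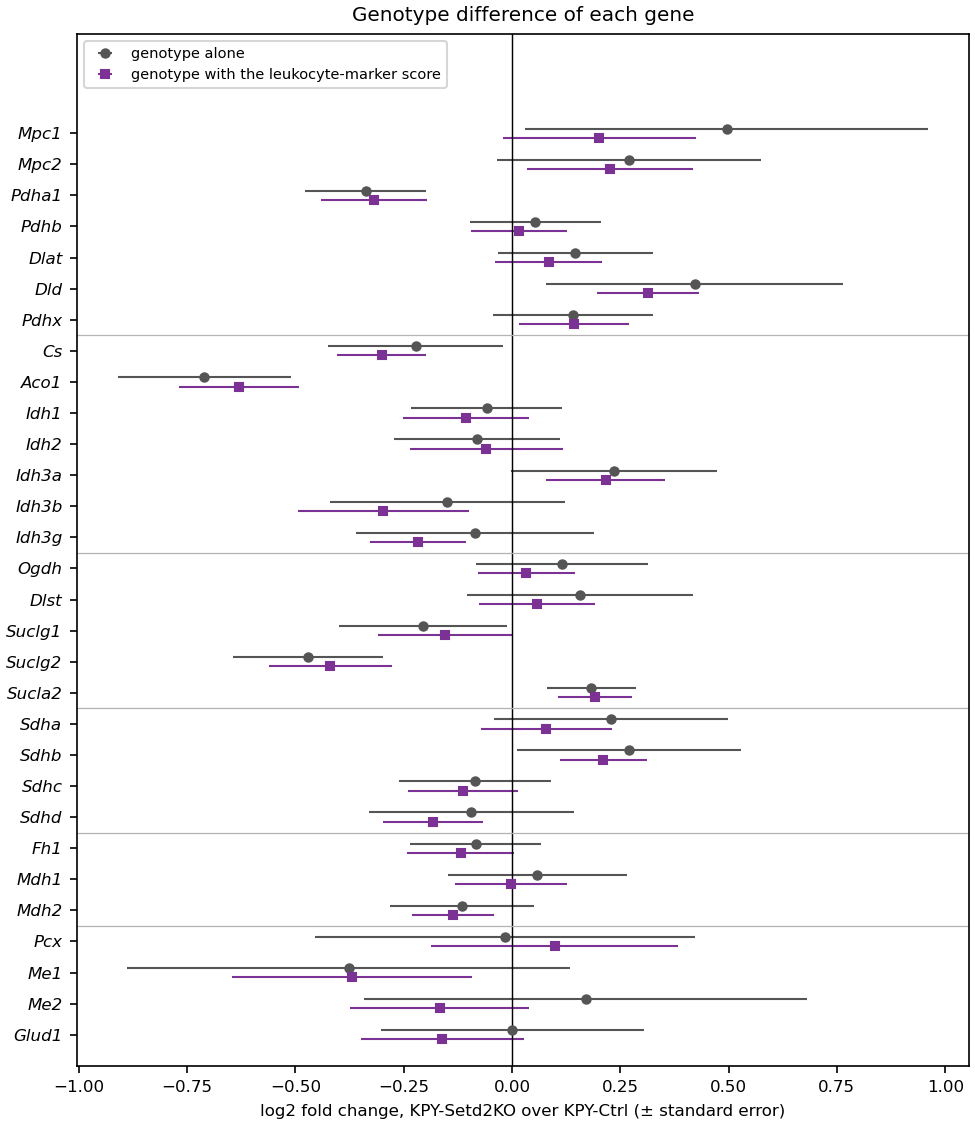
Log2 fold change of KPY-Setd2KO over KPY-Ctrl for each of 30 genes by role, on genotype alone (circles) and with the leukocyte-marker score in the fit (squares), with bars of 1 standard error. Aco1, at -0.71 and -0.63, lies farthest from 0 on the lower side, and the standard errors of Dld, Sdhb and Me2 narrow once the score is fitted.

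In contrast to genotype, leukocyte-marker RNA divided these genes. At a given genotype 19 of 30 rose with the score and 5 fell (edgeR, adjusted p under 0.05), where 28.4% of all tested genes rose and 28.4% fell. When libraries were scaled by their totals alone, 12 rose and 9 fell, where 18.7% of all tested genes rose and 40.3% fell. The median slope was 0.109 log2 units per log2 unit of the score, against -0.00622 over all tested genes. As the tumors fell into 2 separate ranges of the score, the slope is mostly a contrast between those ranges. In the same fit all 13 macrophage markers rose, with slopes of 0.908 to 1.31, and all 10 epithelial markers fell, with slopes of -0.44 to -0.168. Their part in the slopes of the 30 genes was not tested.

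The steepest rises were those of Me2 (slope 0.38, SE 0.04), Mpc1 (0.33, SE 0.05), Dld (0.25, SE 0.02) and Idh3g (0.20, SE 0.02). Me1 had the steepest fall, at -0.36 (SE 0.06, edgeR adjusted p = 0.0002125). Pcx fell with a slope of -0.28 (SE 0.06) and Aco1, Pdhx and Suclg1 with slopes of -0.11, -0.10 and -0.08. By role, pyruvate entry had 5 genes rising and 1 falling, the steps from citrate to 2-oxoglutarate 4 and 1, and those from 2-oxoglutarate to succinate 2 and 1. Complex II had 4 of 4 rising, 2 of 3 rose between fumarate and oxaloacetate, and the last group was divided, with Me2 and Glud1 rising and Me1 and Pcx falling. Scaling by library totals alone left Me2, Mpc1, Dld, Me1 and Pcx with the same directions. Pdha1, Idh1, Idh2, Suclg2, Sucla2 and Fh1 did not pass. The ratio of Me1 to Me2 fell by 0.756 log2 units per unit of the score.

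**Figure D4:**
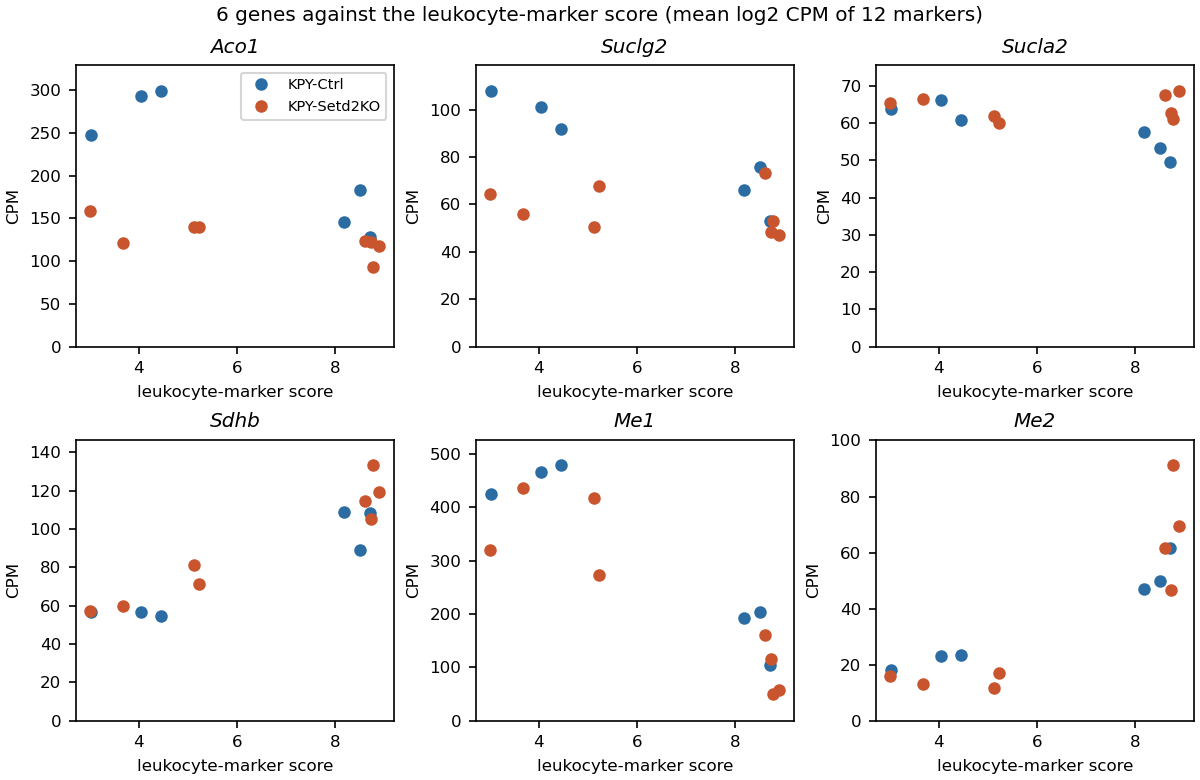
CPM of 6 genes in each of 14 tumors against the leukocyte-marker score, the mean log2 CPM of 12 markers, with KPY-Ctrl in blue and KPY-Setd2KO in orange. Me1 falls and Me2 and Sdhb rise from the tumors of low to those of high score in both genotypes, whereas Aco1 and Suclg2 have medians of 122.6 and 54.31 CPM in KPY-Setd2KO against 215.5 and 83.95 CPM in KPY-Ctrl, and Sucla2 is nearly level.

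The slopes were fitted within each genotype as well. In the 6 KPY-Ctrl tumors 10 genes rose and 4 fell, where 34.1% of all tested genes were called in either direction, and in the 8 KPY-Setd2KO tumors 17 rose and 3 fell, against 45.0%. The 24 genes called over all tumors had the same sign in both genotypes, as did 28 of all 30. The 24 were called from these same tumors, so their agreement in sign was largely fixed by that selection and is not independent support. The share of all tested genes with the same sign was not computed. Me1 had slopes of -0.30 and -0.41 in KPY-Ctrl and KPY-Setd2KO, Me2 of 0.29 and 0.44, and Sdhb of 0.19 and 0.18. A test of the difference between these slopes called 0 of 30 genes with edgeR (smallest adjusted p = 0.322) and 0 with DESeq2, while 0.44% of tested genes were called with edgeR and 3.62% with DESeq2. At an unadjusted p of 0.05 there were 3, Idh3b, Sdha and Idh3g, each steeper in KPY-Setd2KO by 0.17, 0.13 and 0.09, where 4.47% of tested genes were steeper and 7.34% less steep.

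**Figure D5:**
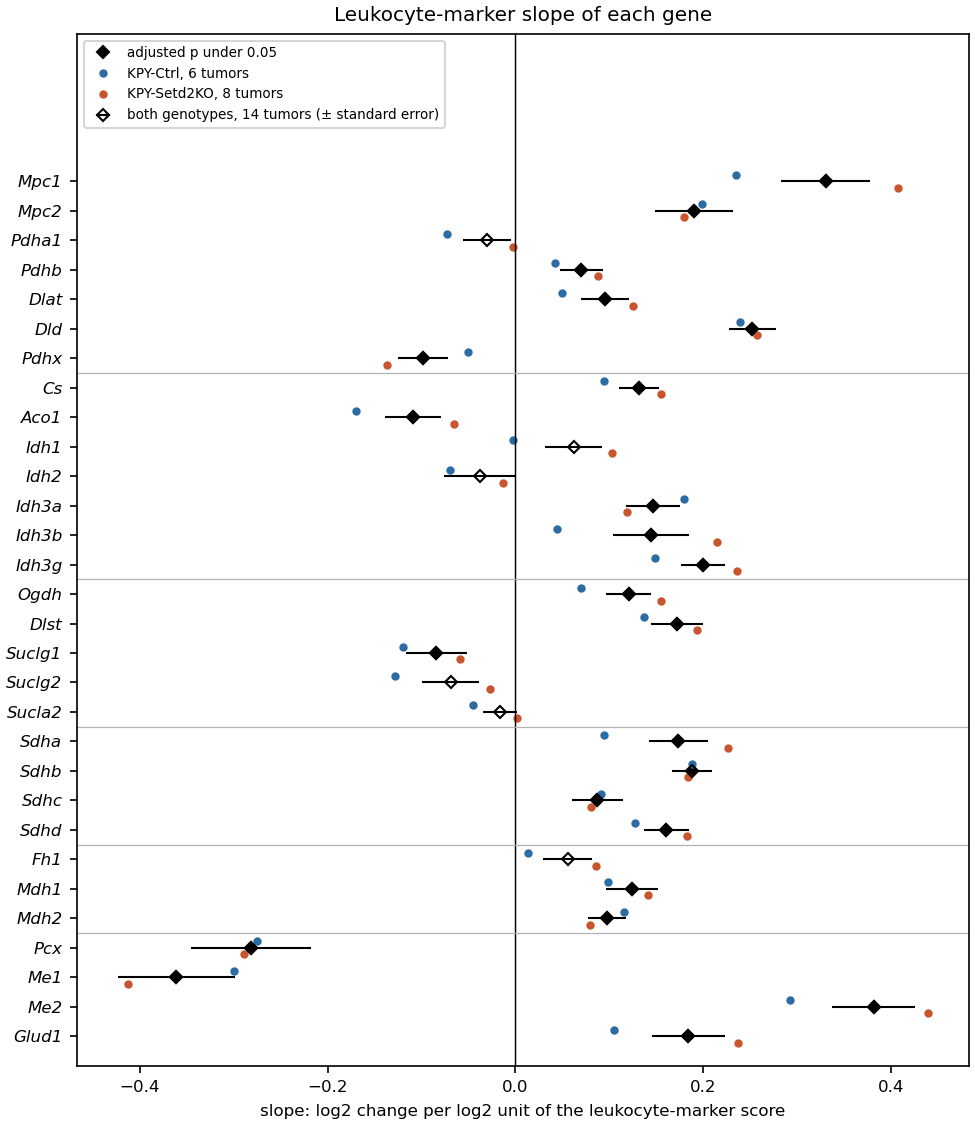
Slope of each of 30 genes, as the log2 change per log2 unit of the leukocyte-marker score, over both genotypes (diamonds with 1 standard error, filled where the adjusted p is under 0.05) and within KPY-Ctrl and KPY-Setd2KO (points). The 4 complex II genes lie to the right of 0, and Me1 and Me2 at opposite ends.

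Other genes of the pathway that are not among the 30 were listed by role, 42 in all, of which 41 were tested. On genotype alone 0 were called, with 2 higher and 5 lower at an unadjusted p of 0.05, against 6.93% and 6.8% of all tested genes. The smallest p-values were those of Got2, the mitochondrial aspartate aminotransferase of the malate-aspartate shuttle (log2 fold change -0.60, adjusted p = 0.168), Pdp2, a phosphatase that switches pyruvate dehydrogenase on (-0.65, adjusted p = 0.214), and Lias, lipoic acid synthase (0.37, adjusted p = 0.226). Lias was the only one of the 41 called with the score in the edgeR fit, at 0.36 (adjusted p = 0.0406), against 5.41% of all tested genes. It makes the lipoyl group that Dlat and Dlst carry and Dld reoxidises. With the leukocyte-marker score 9 rose and 10 fell, against 28.4% and 28.4% of all tested genes. Those that rose were Glul, glutamine synthetase, with a slope of 0.42, the aspartate-glutamate carrier Slc25a12 and the complex II assembly factor Sdhaf2 with slopes of 0.24 and 0.22, and Acss1, Pdk3, Got1, Slc25a11, Sdhaf4 and Lias with slopes of 0.17, 0.15, 0.13, 0.11, 0.09 and 0.06. Those that fell were Gpt, Ogdhl and Gls2 with slopes of -0.45, -0.44 and -0.36, Pck2, Ldhb, Slc25a13 and Lipt1 with slopes of -0.23, -0.22, -0.21 and -0.20, and Acly, Pdk2 and Ldha, each with a slope of -0.13. Of these, Ldha and Ldhb encode the subunits of lactate dehydrogenase, which draws pyruvate away from the mitochondrion, and Acly splits exported citrate to acetyl-CoA.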

How the data were processed

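RNA-seq libraries of YFP+ cells from 14 tumors (6 KPY-Ctrl, 8 KPY-Setd2KO, grouped by the genotype in the labels) were analysed. A further allele shared by both genotypes is not reported here. The authors quantified single-end reads with Salmon 0.8.2 (submitters' processing notes, GRCm38.p5) and deposited a table of estimated counts per Ensembl gene, unnormalised. The labels' protocol text speaks of cell lines, whereas the design text and methods describe sorted tumor cells; the latter were followed. All 14 value columns were mapped to a sample, leaving 0 unmapped. Symbols, strand and coordinates came from GENCODE vM21, which matched 52403 of 52550 genes. How reads shared with near-identical copies were divided was not checked, and the strand setting of the quantification was not given in the sources used here.

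Estimated counts were rounded, filtered with edgeR's filterByExpr and scaled by TMM, and CPM are TMM-scaled. Quasi-likelihood tests (edgeR 4.0.16, R 4.3.3) used genotype alone, genotype with the leukocyte-marker score (mean log2 CPM with a prior count of 2), or their interaction, with Benjamini-Hochberg adjustment over all 16836 genes and calls at an adjusted p under 0.05. Standard errors were derived from the F statistic. Ratios added 0.5 to each count, and an exact permutation test over 3003 assignments of tumors to genotypes was used for them and for Setd2. The 30 genes, all other lists and tests were chosen with earlier results of these data known. Values by tumor are given for the 8 genes with the smallest genotype p, the 4 with the largest genotype fold change, the 4 steepest slopes, the 4 smallest p with the score and the smallest p of each role. On data drawn with 200 genes changed by 1.5 log2 units, the genotype fit recovered 39.5% with 2 false calls (16065 genes) and the fit with the score 68% with 1 (16149 genes). The largest genotype log2 fold change among the 30 genes was smaller in size, at -0.71 (Aco1). These rates therefore do not give how often changes of that size would be found. Alternatives were DESeq2 1.42.0, RLE or library-total scaling, no filter or at least 10 counts in every tumor, a macrophage-marker score, a replicate block, and leaving out each tumor. Some tumors of a genotype share a mouse, and which ones was not given in the sources used here, so p-values measure the spread between these tumors and not between animals. Every gene of the 30 had at least 141 counts in each library.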

Additional observations from a re-analysis of the deposited data

Results flagged for a closer look

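Of 74 sets of values, the log2 CPM of each of the 30 genes and the 7 log2 ratios in each genotype, 2 held a tumor far from the rest by Dixon's test at its 95% critical value, which chance gives in about 1 of 20. Idh2 was at 7.65 log2 CPM in KPY-Setd2KO replicate 7, where the other KPY-Setd2KO tumors lay between 6.61 and 7.04. Suclg1 was at 5.47 log2 CPM in KPY-Setd2KO replicate 4, below the others at 5.94 to 6.32. Of the other genes of the pathway, Pcca, a subunit of propionyl-CoA carboxylase, differed between genotypes in its slope on the leukocyte-marker score by 0.262 (edgeR interaction test, adjusted p = 0.0214), with slopes of -0.126 in KPY-Ctrl and 0.134 in KPY-Setd2KO.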

How the results depend on the processing

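The lowest count of any of the 30 genes in a library was 141. The Suclg2/Sucla2 difference kept its direction and passed with a prior count of 5, with the slope of the score removed and without each tumor in turn. The permutation test of Setd2 passed without each tumor in turn, while edgeR on genotype alone did not call Setd2 (adjusted p = 0.175). Of the 30 genes 0 were called on genotype alone, also with the study's threshold of 1 on the log2 scale, and 1 with DESeq2 (Aco1). With the leukocyte-marker score 1 was called, 3 with library totals alone (Aco1, Cs and Suclg2, where 8.17% of all genes were called), and 2 with DESeq2 (Aco1 and Cs, where 13.3% were). When a tumor was left out 0 to 2 were called, with Suclg2 the second gene without KPY-Ctrl replicate 1 or KPY-Setd2KO replicate 1. Those 2 fits also called the most of all tested genes, 1156 of 17261 and 1240 of 16769, against 911 of 16836 with all tumors. The fewest, 121 of 17115, were called without KPY-Ctrl replicate 4. The slope counts of 19 rising and 5 falling became 12 and 9 with library totals alone, where 18.7% of all genes rose and 40.3% fell. That scaling moved the median of all genes to -0.108 from 0.0304 on genotype alone, to -0.13 from -0.0119 with the score and the median slope to -0.0772 from -0.00622, so directions near 0 are relative to it. The causes of these changes were not tested.

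What else tumors of the same replicate number shared was not given in the sources used here. The correlations of their deviations were 0.523, 0.602, -0.483, -0.664, 0.656 and -0.355, and 3 of 12 tumors correlated best with their own number. With the replicate block 0 of the 30 genes were called in the edgeR fit with the score (Aco1 adjusted p = 0.141), and 0 of all 16836 tested genes. On genotype alone 1 instead of 3 of the 30 had an unadjusted p under 0.05, and 1909 instead of 2311 of all tested genes. With the score 12 of the 30 rose and 2 fell, where 2844 of all 16836 tested genes rose and 2000 fell.

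Not all signs that turned belonged to differences near 0, but none of these differences passed a test. With library totals alone these were, on genotype alone, Pdhb (-0.0972), Dlat (-0.0142), Ogdh (-0.0526), Dlst (-0.00179), Mdh1 (-0.102), Me2 (-0.00265) and Glud1 (-0.175), with the score Pdhb (-0.0975), Dlat (-0.0295), Ogdh (-0.0853), Dlst (-0.0577), Sdha (-0.0404) and Pcx (-0.0208), and among slopes Idh1 (-0.00969) and Fh1 (-0.015). Glud1 turned to -0.0418 with no filter and -0.0202 with at least 10 counts, and with the score Pdhb turned to -0.0305 and Ogdh to -0.0116 with no filter, and Mdh1 to 0.00191 with RLE factors and 0.00171 with DESeq2. With the replicate block Idh1 turned to 0.053 on genotype alone, and Idh1 to 0.0249, Pcx to -0.35 and Glud1 to 0.0431 with the score. The Idh1/Idh2 ratio turned to -0.0216 with the slope of the score removed. Leaving out 1 tumor gave log2 differences of -0.0195 to 0.113 for Pdhb on genotype alone, -0.16 to 0.00991 for Idh1 on genotype alone, -0.18 to 0.00244 for Idh3g on genotype alone, -0.00765 to 0.144 for Mdh1 on genotype alone, -0.361 to 0.145 for Pcx on genotype alone, -0.112 to 0.369 for Me2 on genotype alone, -0.151 to 0.105 for Glud1 on genotype alone, -0.0377 to 0.0868 for Pdhb with the score, -0.214 to 0.0216 for Idh2 with the score, -0.019 to 0.0672 for Ogdh with the score, -0.0474 to 0.119 for Dlst with the score, -0.0307 to 0.146 for Sdha with the score, -0.0936 to 0.0618 for Mdh1 with the score, -0.183 to 0.216 for Pcx with the score, -0.116 to 0.174 for ratio Idh1/Idh2, -0.0927 to 0.248 for ratio Mpc1/Mpc2, -0.0598 to 0.366 for ratio Pcx/Pdha1.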
